A study of Homo sapiens with 8 samples.

Results

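ATF4 binding was compared between SUPB15 cells given L-asparaginase and SUPB15 cells left untreated. SUPB15 is an established B-cell precursor acute lymphoblastic leukaemia line that carries the BCR-ABL1 fusion. These are 4 of the 8 libraries of the series, 2 per side, and the other 4 come from the line Nalm6. The members were found by the labels of cell line and treatment, and they hold 148676 of the 312662 listed peaks. Treated cells had received 1 IU/ml of the enzyme for 2 h, and the other group is labelled as having no treatment. Both groups were kept in the same glutamine-containing medium, and 5 µg of a rabbit monoclonal antibody to ATF4 was used for each precipitation. The comparison asks which sites ATF4 occupies when the drug is present and when it is not. Nothing in the labels says that the libraries of a side came from separate cultures, so the spread between them may be technical.

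ATF4 is a basic leucine zipper transcription factor. When amino acids run short, the kinase GCN2 phosphorylates the initiation factor eIF2α, general translation slows, and the ATF4 transcript is translated more. ATF4 then binds, often paired with a C/EBP protein, to composite elements at genes for amino acid synthesis, amino acid uptake and tRNA charging. L-asparaginase removes asparagine from outside the cell, and leukaemic lymphoblasts that make little asparagine synthetase depend on that supply. Regions are given by their hg19 position without gene name or sequence, because a genome and an annotation of that build were not used here. The label of the antibody was therefore not checked against known ATF4 target genes.

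Asparaginase-treated SUPB15 cells had many more listed ATF4 peaks than untreated ones. The untreated lists held 9575 and 9586 peaks and the asparaginase lists 88302 and 41213, so the groups did not overlap, and the treated replicates differed from each other far more than the untreated ones did. The means were 9580.5 ± 7.78 without and 64757.5 ± 33300 with asparaginase (SD, n = 2). The ratio of geometric means was 6.30 over the whole genome and 6.17 outside 2 chromosome segments, chromosome 8 from 60 Mb and chromosome 1 from 180 Mb, which held 13.0% to 20.8% of the peaks of each library. With 2 libraries against 2, the exact two-sided permutation test gave p = 0.333 in both cases, the smallest value this design allows. Relative depth was alike: the genome background, the mean number of fragments expected at a position without enrichment, was 4.08 and 3.90 in the untreated libraries and 4.19 and 3.93 in the treated ones.

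**Figure D1:**
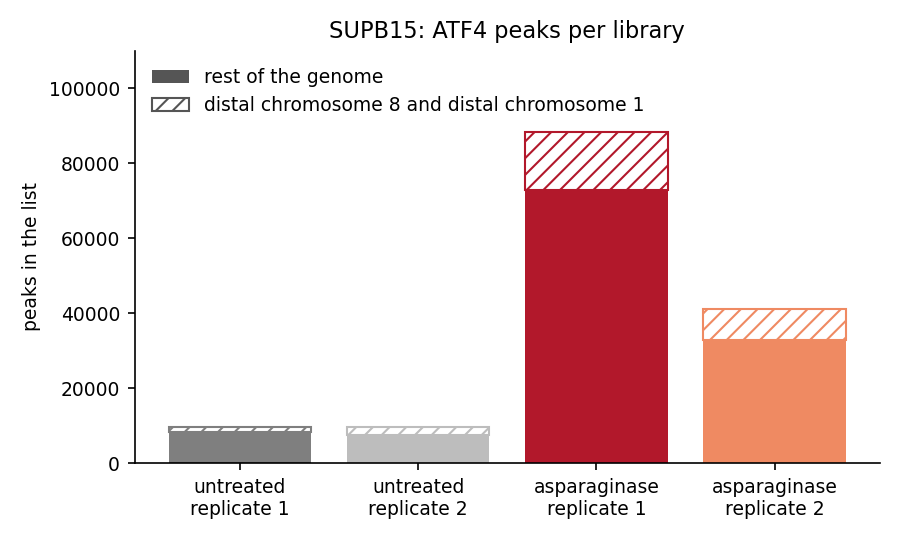
Bars show the number of listed peaks in each SUPB15 library, with the solid part for the rest of the genome and the hatched part for chromosome 8 from 60 Mb and chromosome 1 from 180 Mb. Both asparaginase lists are longer than both untreated lists in each part, and asparaginase replicate 1 holds 88302 peaks against 41213 in replicate 2.

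Whether a peak recurred in the other replicate of its side depended on its strength. Outside both segments, untreated replicate 1 had a partner for 28.2% of its peaks with −log10 q under 3 and for 99.5% of those from 20 to 50. Asparaginase replicate 1 had a partner for 6.81% of 13054 peaks with −log10 q under 3, for 38.4% of 17242 peaks from 5 to 10 and for 98.9% of 3537 peaks from 20 to 50. In asparaginase replicate 2 the corresponding shares were 39.3%, 82.4% and 99.7%. All 2238 and 1358 treated peaks with −log10 q of at least 50 recurred. Asparaginase replicate 1 held more peaks than replicate 2 at every strength, from 13054 against 5514 under 3 to 2238 against 1358 from 50 upwards. Its weak peaks recurred least. Outside the segments, 49527 regions were listed in replicate 1 alone, at a median width of 246 bp, and 10139 in replicate 2 alone. For this reason only peaks present in both replicates of a side are counted from here on.

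**Figure D2:**
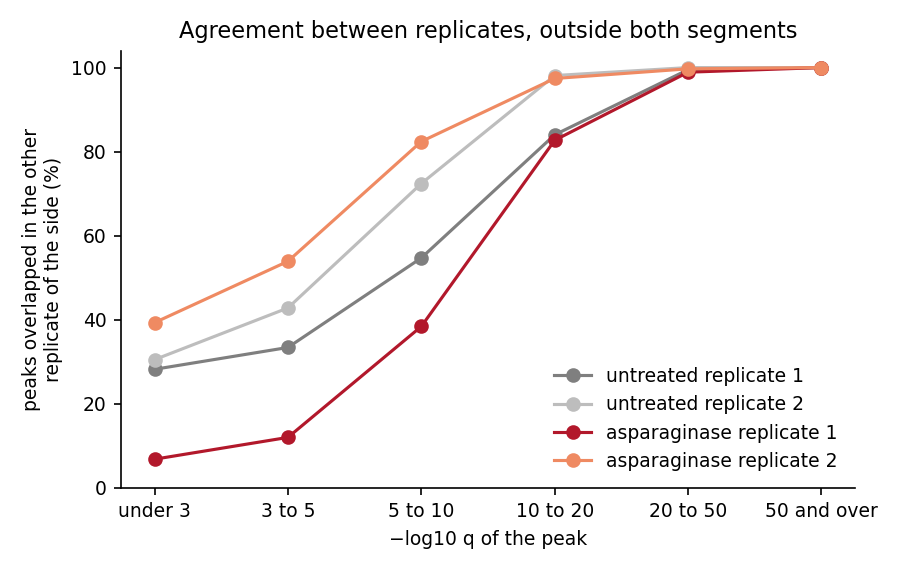
The share of peaks overlapped by a peak of the other replicate (vertical axis, percent) is plotted against the −log10 q of the peak in 6 bins, 1 line per library, outside both segments. Lines run together near 100% from −log10 q of 20 upwards and spread below 10, where asparaginase replicate 1 is lowest.

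The 4 lists merged into 102989 regions, of which 26825 were present in both replicates of a side. Both asparaginase lists contained 26563 regions and both untreated lists 5027. Of the former, 17239 (64.9%) were absent from each untreated list and are called gained. Outside the segments the numbers were 21554 and 13653, or 63.3%. A further 4559 regions were in both treated lists and in a single untreated one. Loss was rare at the deposited list lengths: 28 regions were in both untreated lists and in neither treated list, which is 0.557% of 5027. Outside the segments it was 17 of 4453, or 0.382%. Another 234 regions of both untreated lists were found in a single treated list. Altogether 4765 regions, 4245 of them outside the segments, were listed in every SUPB15 library. These shares describe counts of regions and carry no test over libraries. The counts depended on single lists and on the threshold: the gained count was 31279 without asparaginase replicate 1 and 77088 without replicate 2, and regions in every library were 7348 without untreated replicate 2. With −log10 q of at least 10 there were 4573 gained and 17 untreated-only regions, and with every list cut to its 9575 strongest peaks, 2683 and 1036.

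At gained regions a missing peak is not a measured level of 0. The level used below is the summit pileup plus 1 divided by the genome background of the library. A pileup equal to that background thus gives a level somewhat above 1. At genome background a peak needed a level of 3.68 and 3.59 to be listed in the untreated libraries, and 3.10 and 3.31 in the treated ones. Outside the segments, the rise needed to go from under the untreated limit to the measured treated level was at least 1.30-fold at the median gained region, taking the lowest of the 4 pairs of libraries and the local background of the treated library. It was over 1.5-fold at 4038 of 13653 gained regions (29.6%), over 2-fold at 1250 (9.16%) and over 3-fold at 105 (0.769%). The bound passed 1 at 96.2% of them. The untreated local background at these regions is not known, and a higher one would lower the bound. For the 9615 regions (70.4%) with a bound of up to 1.5, the lists leave the size of the rise undetermined.

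Gained regions with a larger bound were also more sharply placed. The distance between the summits of both asparaginase replicates, which the class does not use, had a median of 64 bp at bounds of up to 1.5, 29 bp at 1.5 to 2, 21 bp at 2 to 3 and 18 bp over 3. The treated level rose over the same groups, from medians of 6.20 and 5.60 to 18.1 and 15.3, so strength and summit distance moved together. Nalm6 libraries, which took no part in the choice, listed a peak in at least 1 of their 4 lists at 47.5% of the regions with a bound of up to 1.5 and at 81.9% of those over 3. Nalm6 also gained 7.0% of the former and 33.3% of the latter.

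The gained region with the highest enrichment outside the segments lay at chr6:102335506-102335873. Its summit pileups were 72 and 58 fragments, 17.4 and 15.0 times the genome background, and the summits were 8 bp apart. No untreated list and no Nalm6 list held a peak there, and the bound on the rise was 4.09-fold. At chr21:25303870-25304494 the pileups were 77 and 56 and the bound 3.95, and at chr10:114350481-114351043 they were 63 and 55 with a bound of 3.88. Nor did Nalm6 list these regions.

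The region at chr2:58743085-58743775 had pileups of 68 and 52 and was listed in all 4 Nalm6 libraries, treated or not. The same held for chr7:44013667-44014024, where 100 and 62 fragments were piled up and the summits were 3 bp apart, and for chr7:87833759-87834429, with 64 and 50 fragments. The other 4 of the 10 leading regions were at chr12:42048286-42048743, chr12:66052160-66052542, chr7:91225167-91225564 and chr12:102723581-102724171. Over all 10, treated levels were 14.1 to 24.1 in replicate 1 and 13.0 to 16.3 in replicate 2, and bounds were 3.53 to 4.09. Of the 10, 5 had a peak in some Nalm6 library. That compares with 52.8% of all 13653 gained regions outside the segments and 81.9% of those with a bound over 3.

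Regions listed in every SUPB15 library allow levels to be compared directly, and they split into 2 bands. One band rose little with asparaginase, by a median of 0.28 on the log2 scale, and the other by a median of 1.45. Outside the segments the log2 change, scaled by genome background, was most frequent between 0.2 and 0.3 (345 regions) and again between 1.4 and 1.5 (229 regions), and least frequent between these humps at 0.9 to 1.0 (112 regions). With the border at that trough, 0.95, which was set after the values were seen, 2456 regions fell in the lower hump and 1789 in the upper hump. Within 0.1 of the border lay 121 and 117 regions.

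**Figure D3:**
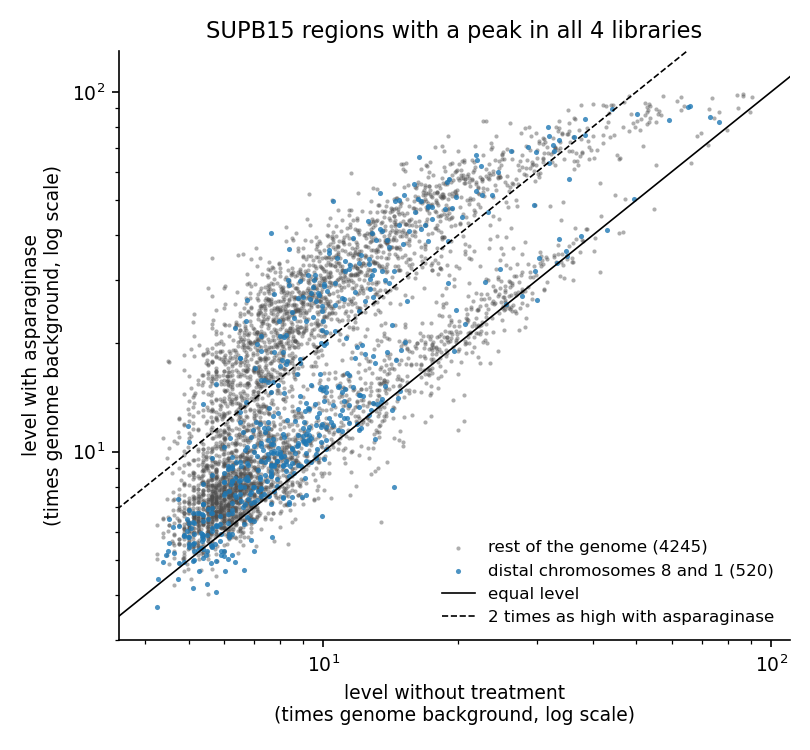
Each point is 1 region listed in all SUPB15 libraries, at its level without treatment (horizontal) and with asparaginase (vertical), each the geometric mean of 2 replicates, in multiples of the genome background on log axes. One band follows the solid line of equal levels, a second lies above the dashed line of 2 times the untreated level, and the bands approach each other at the highest levels.

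**Figure D4:**
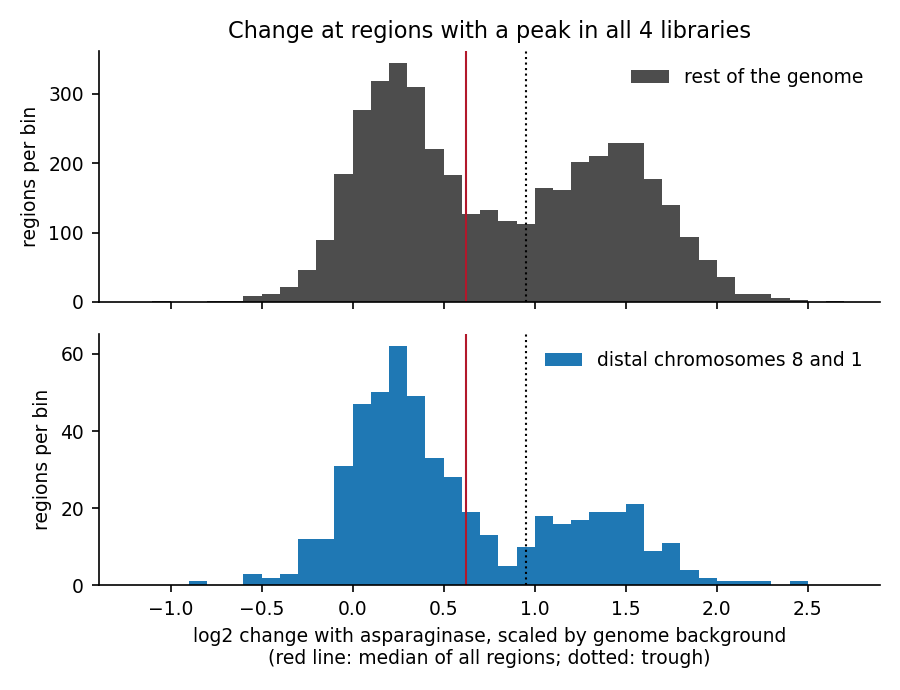
Histograms give the number of regions per bin of 0.1 in the log2 change with asparaginase, scaled by genome background, for the rest of the genome (top, 4245 regions) and for distal chromosomes 8 and 1 (bottom, 520 regions). Counts fall to a low near the trough and rise again above it in both panels; the dotted line marks the trough at 0.95 and the red line the median of all regions, 0.62, which lies between the humps.

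Levels in the lower hump had medians of 7.35 and 6.92 in the untreated libraries and 10.0 and 8.15 in the treated ones. In the upper hump they were 10.3 and 8.72 without treatment and 32.7 and 23.7 with it. Both treated levels exceeded both untreated levels at all 1789 regions of the upper hump, which the border fixes in large part, and at 1132 of 2456 regions (46.1%) of the lower one. Over the whole genome this held at 3243 of 4765 regions (68.1%), while both treated levels lay below both untreated levels at 81 (1.70%). Treated replicate 2 was lower than replicate 1 by a median of 0.37 on the log2 scale over these regions, and untreated replicate 2 was lower than replicate 1 by 0.13.

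Local background moved with the upper hump. Its median was 1.70 and 1.62 times the genome background without treatment and 2.83 and 2.19 times with it, against 1.54, 1.47, 1.79 and 1.56 in the lower hump. The labels name no control library, and the values do not exclude that this background was taken from the precipitated library around each peak. Such a background holds the peak's own fragments, so its rise may not be a separate measurement from that of the pileup. The peak caller divides by this background, so the deposited fold enrichment gives smaller changes than the pileup: its medians in the upper hump were 5.39 and 4.85 without asparaginase and 11.1 and 10.0 with it. The bands approached each other at the highest levels, where no pileup in any SUPB15 list exceeded 400, and whether removal of duplicate reads sets that ceiling was not tested.

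Summit positions, which the border did not use, were closer together in the upper hump. The treated summits of both replicates lay a median of 14 bp apart there and 51 bp apart in the lower hump, and the untreated summits 28 and 59 bp. The regions were also divided into 5 groups by untreated level, to compare humps at like untreated strength. Treated levels were not matched and were higher in the upper hump, so the treated distances compare unlike strengths. In the weakest group (levels 4.25 to 6.01) the treated summits were 21 bp apart in the upper and 106 bp in the lower hump, and the untreated summits 58 and 131 bp. In the middle group (7.15 to 9.15) the untreated distance was 32 bp in the upper and 53.5 bp in the lower hump. In the strongest group (14.7 to 90.6) the treated distance was 10 bp in both humps, and the untreated distance was 15 bp in the upper and 11 bp in the lower hump. The second strongest group had untreated distances of 26 bp in the upper and 24 bp in the lower hump, so a smaller untreated distance in the upper hump was seen only in the 3 weaker groups. The share of regions in the upper hump was 19.8%, 29.8%, 52.4%, 63.5% and 46.2% from the weakest to the strongest group.

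Nalm6, whose libraries are independent of these, also changed more at the upper-hump regions than at the lower-hump ones. Whether the Nalm6 changes themselves form 2 bands was not tested. All 4 Nalm6 libraries listed a peak at 2105 regions (85.7%) of the lower and 1353 (75.6%) of the upper hump. At these regions the Nalm6 level changed with asparaginase by a median of 0.11 on the log2 scale in the SUPB15 lower hump (quartiles −0.06 and 0.37) and of 1.5 in the upper hump (1.15 and 1.80). Both treated Nalm6 levels exceeded both untreated ones at 98.7% of the upper-hump and 42.3% of the lower-hump regions. Across the 3458 regions the changes in the lines correlated with Pearson's r of 0.77, a description over regions that share peak strength and base composition in both lines.

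Limma called 976 of the 4765 regions (20.5%) stronger and 284 (5.96%) weaker with asparaginase after the changes were centred on their median, with Benjamini-Hochberg adjusted p under 0.05. Centring took 0.62 off every log2 change, a factor of 1.54, and this median fell between the humps. Scaled by genome background alone, 2334 regions (49.0%) were stronger and 4 (0.0839%) weaker, so stronger regions were 99.8% of the calls instead of 77.5%. All 976 regions called after centring lay in the range of the upper hump, with a smallest uncentred rise of 1.02. The 284 weaker ones had a median uncentred change of −0.13, and 40 of them were above 0. Their changes lay below the median change of all regions, and 64 of them had both treated levels below both untreated levels. The number of calls changed when a library was left out, which leaves 1 library on a side and takes the spread from the other pair alone. Without untreated replicate 1 the centred fit called 6 stronger and 4 weaker, without replicate 2 it called none (412 regions at unadjusted p under 0.05), and with background scaling alone the stronger regions were 1393 and 724. The median standard error was 0.52 in these fits and 0.32 with all libraries. Without asparaginase replicate 1 the centred fit called 392 stronger, and without replicate 2 it called 596 weaker.

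The region with the largest rise lay at chrX:70752655-70754088. Its pileups were 21 and 22 fragments without treatment and 169 and 115 with asparaginase, levels of 5.39 and 5.90 against 40.6 and 29.5. The groups were far apart, and the rise was 6.14-fold, a log2 change of 2.62 ± 0.36 (SE, limma, adjusted p = 3.54e-10), or 2.00 after centring (limma, adjusted p = 4.91e-05). Without untreated replicate 1 or 2 the centred change was 1.85 or 2.10 (limma, adjusted p = 0.244 and 0.362).

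At chr12:4524159-4524857 the untreated pileups were 42 and 31 and the treated ones 261 and 168. The rise there was 5.58-fold, and the treated summits lay 17 bp apart. At chr16:22303054-22303773 the region was already stronger without treatment, at 56 and 36 fragments, and reached 280 and 206, a rise of 5.16-fold. Treated levels of these and the next regions were well separated from untreated ones in every case. The regions were chosen by their called rise, so the separation and the small adjusted p follow in large part from the choice.

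The region at chr17:16970302-16971035 went from pileups of 28 and 23 to 166 and 122 (5.34-fold), and that at chr11:132553359-132553975 from 32 and 23 to 161 and 137 (5.22-fold). At chr6:12044717-12045628 the pileups were 30 and 34 without and 184 and 157 with asparaginase (5.10-fold). Among the 10 largest rises, treated replicates differed most at chrY:21237420-21238149, with 161 and 81 fragments against 22 and 20 untreated. The other 3 were at chrX:19906413-19907174, chr8:1842804-1843522 and chr11:9632561-9633299. All 10 rose 4.83-fold to 6.14-fold with adjusted p of 4.91e-05 to 0.000528 after centring (limma), and all 10 had a peak in some Nalm6 library, 8 in all 4.

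The very most enriched regions of SUPB15 changed less: ranked by the lowest of the 4 fold enrichments outside the segments, the top 10 had a median log2 change of 0.15, the top 50 of 0.47 and the top 100 of 0.60, against 0.68 over all 4245 regions. The top 500 had a median of 0.89, above that of all regions. The ranking uses the untreated enrichments, and the untreated levels enter the change with a minus sign, so rank and change are not independent. At the top stood a region at chr1:91852655-91853273, with fold enrichments of 21.0 and 21.7 without and 23.0 and 23.5 with asparaginase, and pileups of 256, 287, 297 and 313. Levels were 63.0 and 73.9 without and 71.1 and 80.0 with asparaginase, so in levels the groups overlapped, and the uncentred log2 change was 0.14 ± 0.15 (SE, limma, adjusted p = 0.453). At chr12:20704221-20704649 the pileups were 107 and 128 without and 129 and 136 with the drug, and at chrY:58827157-58827539 they were 100, 101, 100 and 100. No list of artefact-prone regions was applied, so whether the most enriched regions include such places was not tested.

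At chr11:64863255-64863950 the untreated pileups of 324 and 255 met treated ones of 326 and 255. At chr1:156186115-156186728 they were 260 and 296 against 301 and 320, and at chr5:71146599-71147073 they were 140 and 151 against 157 and 157. In levels, which are scaled by genome background, the groups overlapped at all 3, with 63.9 and 76.2 against 72.1 and 81.7 on chromosome 1, and 34.5 and 39.0 against 37.7 and 40.2 on chromosome 5. After centring, these on chromosomes 11 and 1 and the top region on chromosome 1 were called weaker (limma, adjusted p = 0.00098, 0.0099 and 0.0123), and without centring their adjusted p was 0.931, 0.471 and 0.453. Of the 10 strongest regions, 2 passed the test without centring: chrX:24072365-24073148 rose 1.72-fold (pileups 194 and 143 to 347 and 246, limma adjusted p = 0.000118), and chrX:54665474-54666415 rose 1.42-fold (201 and 164 to 310 and 223, limma adjusted p = 0.0160). After centring both were near 0, at 0.16 and −0.11, and neither passed. All 10 strongest regions were also listed in all 4 Nalm6 libraries. None of them lay in the upper hump, which held 25 of the 100 strongest, 235 of the 500 strongest and 42.1% of all regions outside the segments.

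**Figure D5:**
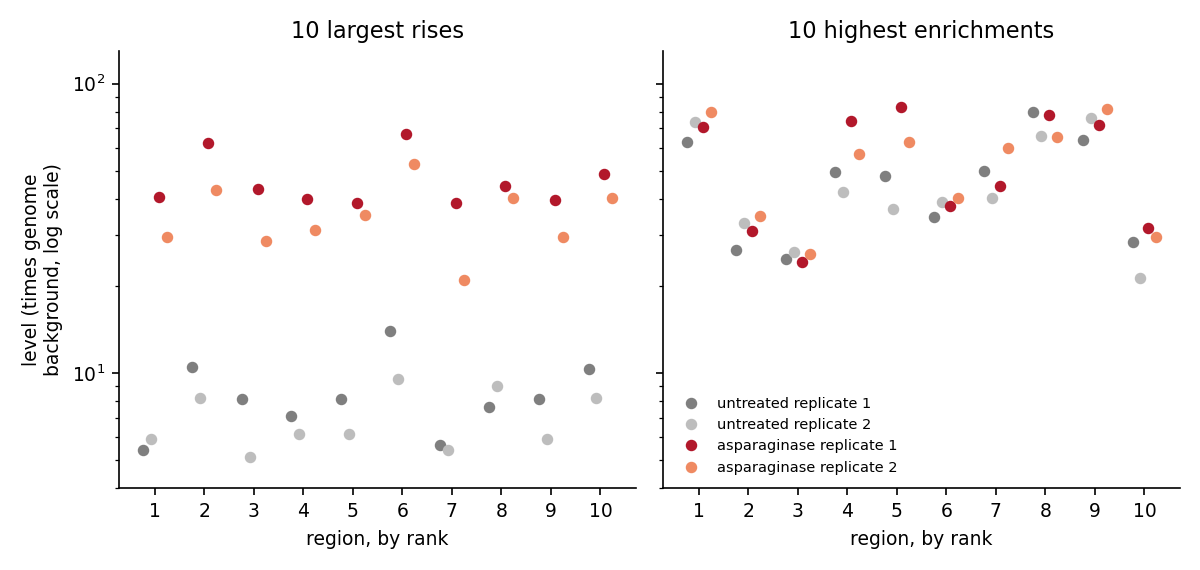
Levels in multiples of the genome background (log axis) are drawn for each SUPB15 library at the 10 regions with the largest called rise (left) and the 10 regions with the highest lowest fold enrichment (right), by rank. On the left all treated points lie above all untreated points, which the choice by called rise largely fixes. On the right the 4 points of most regions overlap or lie close together.

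Falls were few. The lowest change was at chr12:89602383-89603001, where pileups of 69 and 40 without treatment became 23 and 27 with it, 0.476 times the untreated level (log2 −1.07 ± 0.32, SE, limma adjusted p = 0.00222). At chr11:63456701-63457557 the pileups were 101 and 65 against 42 and 56, and at chr2:92315840-92316283 they were 79 and 78 against 36 and 58. These last regions passed after centring (limma adjusted p = 0.00482 and 0.00389) and did not without it (0.0789 and 0.0622). The same was true of chr10:38817118-38818808 and chr12:34846266-34846614. The other 3 falls called without centring were chosen after their values were seen. They were at chr1:207824810-207825294 (0.556 times), chr12:66696144-66696654 (0.730 times) and, in the segment of chromosome 8, chr8:72952628-72953000 (0.706 times). Whether these falls, or the untreated-only regions below, lie in artefact-prone places was not tested.

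Untreated-only regions were weak over the whole genome, with median levels of 5.88 and 5.77. Gained regions were not much stronger, with treated medians of 6.68 and 6.11. The strongest untreated-only region outside the segments by the lower of both enrichments was at chr7:61988470-61988814, with 24 and 23 fragments at its summit. Replicates disagreed more at chr22:17300144-17300616, with 40 and 22 fragments, and at chr14:31390565-31390899, with 37 and 22. At chr15:56296004-56296251 there were 23 and 22, and at chr19:48453131-48453451 there were 21 and 25. The count of 28 such regions became 1268 without untreated replicate 1, 881 without untreated replicate 2, 230 without asparaginase replicate 1 and 87 without asparaginase replicate 2, since a single list then decides a side.

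Both segments shared the direction of the rest of the genome but differed in the mixture. The gained share of the regions in both treated lists was 72.1% on chromosome 8 from 60 Mb (2427 of 3366, 95% Wilson interval 70.6 to 73.6) and 70.5% on chromosome 1 from 180 Mb (1159 of 1643, 68.3 to 72.7), against 63.3% elsewhere (62.7 to 64.0). The intervals hold counting error of regions alone, not the spread between libraries. Treated levels at gained regions had medians of 5.73 and 5.60 in the segments and 7.16 and 6.11 elsewhere. The lower bound on the rise passed 2-fold at 1.78% and 9.16% of them, which does not give the size of the rise.

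Among regions of every SUPB15 library, the median change was 0.31 on distal chromosome 8 (311 regions), 0.47 on distal chromosome 1 (209 regions) and 0.68 elsewhere. The upper hump held 23.8% of them on chromosome 8 (95% Wilson interval 19.4 to 28.8), 35.4% on chromosome 1 (29.2 to 42.1) and 42.1% elsewhere (40.7 to 43.6). Untreated local background was higher at these regions, 2.02 and 1.83 times the genome background on chromosome 8 and 2.15 and 2.04 times on chromosome 1, against 1.6 and 1.52 times elsewhere. The part of this background in the differences was not tested. Limma with centring called 29 stronger (9.32%) and 50 weaker (16.1%) on chromosome 8, 34 and 11 on chromosome 1, and 913 (21.5%) and 223 (5.25%) elsewhere. Scaled by genome background alone, it called 82 stronger and 1 weaker on chromosome 8, 89 and 1 on chromosome 1, and 2163 and 2 elsewhere, so the weaker calls on chromosome 8 came with the subtraction of the median of all regions. All these counts come from fits over all 4765 regions. Fitted and centred outside the segments alone, limma called 718 of 4245 regions (16.9%) stronger and 287 (6.76%) weaker.

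The leading gained regions of the segments had high treated levels all the same. At chr8:64131858-64132293 the pileups were 76 and 65, with a bound on the rise of 3.43-fold, and the summits lay 6 bp apart. The next were at chr8:78949590-78950081, with 53 and 40 fragments, and chr8:78917756-78918196, with 50 and 44. At chr1:224811318-224812118, pileups of 160 and 111 gave a bound of 3.88-fold. In the same segment, 61 and 42 fragments were piled up at chr1:189322454-189323099, and 71 and 50 at chr1:194888310-194888687. Of these 6 regions, 2 had a peak in a Nalm6 library.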

How the data were processed

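Each SUPB15 library came with 1 list of peaks. Per the submitters' processing notes, BWA, MACS2 and DiffBind were used with build hg19. Their versions and options, and any control library, are not stated in those notes or the labels. For each peak the authors deposited a fold enrichment at the summit (a ratio to local background), −log10 p and −log10 q, and the summit position, besides a display score that was not used. Peaks were thus called per sample.

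Peaks of the 4 lists sharing at least 1 bp were merged with Python 3.11.15 and pandas 2.3.3. In MACS2 the fold is (pileup + 1) / (background + 1) and p is a Poisson tail, so each deposited pair was solved for a whole-number pileup and a local background, with a tolerance of 0.001 in −log10 p. This succeeded for 100% of the peaks. The lowest background of a list served as its genome background and relative depth, since the lists give no read totals. Higher backgrounds were multiples of 0.02 (tolerance 0.0005). No listed peak was wider than 2945 bp.

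Levels, log2((pileup + 1) / genome background), were taken from the strongest peak of each library in a region. Regions in all 4 SUPB15 libraries were tested with limma 3.58.1 in R 4.3.3 (trend, no replicate block, centred on the median change, Benjamini-Hochberg adjustment at 0.05). Regions enter only when listed 4 times, so those gained from below the limit are not tested. The scripts were tested on simulated data. The members, segments, lists and tests were chosen with earlier results of these data known. Named regions follow a rule, all outside the segments unless said: the 10 gained regions with the highest lower treated enrichment, the 10 regions in every library with the highest lowest enrichment, the 10 largest and 5 smallest called changes, the 5 leading untreated-only regions, and 3 gained regions per segment. Alternatives were other q limits, equal list lengths, overlap rules, scaling, pseudocount, trend, a replicate block and left-out libraries; a common p limit, background scaling with left-out libraries, the border between humps, the bound for gained regions and the use of Nalm6 at the same regions were chosen after seeing the data. Gene lists and binding elements were not analysed, since an hg19 genome and annotation were not used here, and no list of artefact-prone regions was applied.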

Additional observations from a re-analysis of the deposited data

How the results depend on the processing

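The treated to untreated peak ratio was 4.30 to 9.22 without single libraries and above 1 in all alternatives run. Gained regions numbered 9702 with −log10 q of at least 5, 4573 with at least 10 and 2683 when every list was cut to its 9575 strongest peaks, and 19227 to 77088 without single libraries, where the highest count came without asparaginase replicate 2 and 31279 without replicate 1. A common −log10 p limit of 4.46, added later, left 16961. Untreated-only regions were 17 with −log10 q of at least 10, 1036 with equal lengths, 538 with reciprocal overlap of 50%, 228 with summits within 200 bp, 17 outside both segments and also without chromosomes 1 and 8, and 87 to 1268 without single libraries. Regions in every library were 2916 and 1642 at these q limits, 2485 with reciprocal overlap, and 4709 to 7348 without single libraries. Stricter limits leave fewer peaks by construction, and a side with 1 library is easier to fill. Equal lengths shortened the treated lists most, and untreated-only regions rose from 28 to 1036, so their number depended on list length. For the overlap rules the cause was not tested.

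Stronger regions numbered 2334 with background scaling alone, 2150 outside the segments on that scaling, and 0 to 1063 without single libraries when centred (392 without asparaginase replicate 1). With background scaling they were 724 to 2894 without single libraries (2085 without asparaginase replicate 1). Weaker regions were 4, 2, 0 to 596 and 0 to 39 in the same order, and 546 with the deposited fold enrichment. Of 1642 regions with −log10 q of at least 10 in every library, 55 were stronger and 514 weaker, as their own median change of 1.09 was taken off; 56.6% of them were in the upper hump. The replicate numbers do not show that libraries were paired (correlation of same-numbered deviations 0.09 over 4765 regions); with a replicate block 1634 regions were stronger and 707 weaker, and the peak ratio stayed at 6.30 (exact permutation test, p = 0.5). None of the 15 named changes reversed under the settings run; the 10 rises lost their call in 19 of 152 refits, all of them centred fits without an untreated library, and the 5 smallest changes in 34 of 76. The 2 planned shares at transcription starts and at the amino acid response element were not run.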

Other observations

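Gained regions were found on all chromosomes. Outside both segments the number of gained regions per region of every library ran from 2.71 on chromosomes 16 and 17 to 3.89 on chromosome 18, apart from chromosome Y with 34 gained regions and 36 found in every library. Of these 36, 2 were in the upper hump, and on the other chromosomes the share of regions of every library in the upper hump was 33.1% (chromosome 15) to 56.7% (chromosome 22).

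Outside the segments, gained regions lay at a median distance of 155 kb from the nearest region of every library, and 749 of 13653 (5.49%) were within 10 kb of one. The distance from random positions was not computed, so these values do not show whether gained regions lie near or far. For regions listed in asparaginase replicate 1 alone the median was 187 kb and the share within 10 kb 3.63%, and for replicate 2 alone 216 kb and 3.07%. Regions in both treated lists and a single untreated one had a median of 131 kb and a share of 6.18%. Over the whole genome the median level of such regions in their untreated list was 6.13 (replicate 1, 2585 regions) or 5.90 (replicate 2, 1974 regions), with treated medians of 9.54 and 7.89 in the former and 7.40 and 6.37 in the latter.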
